A study of Mus musculus with 37 samples.

Results

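Type I interferon-stimulated genes are the genes that a cell switches on when interferon binds its receptor, or when the cell's own sensors of foreign nucleic acid are engaged. Here 33 such genes were followed as a named list out of 51123 gene identifiers, and all 33 had an identifier and passed the filter on low values in both sets of libraries (14458 genes tested in set 2 and 14404 in set 1). The list was given by symbol and holds antiviral effectors, the ISG15 conjugation system, transcription factors of the pathway, nucleic acid sensors, guanylate-binding proteins and several less studied members. Interferons alpha and beta act through a shared receptor and the kinases JAK1 and TYK2 on a complex that holds STAT2 and IRF9 and binds the interferon-stimulated response element (ISRE) in the promoters of these genes. Interferon gamma acts on a different motif, the gamma-activated site (GAS). Leukocytes are strong responders and, in the case of plasmacytoid dendritic cells, strong producers of interferon, but mesenchymal cells of the marrow and bone also respond, so the leukocyte gene Ptprc (CD45) was read in every library beside these genes.

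All values were transcript shares scaled to a fixed total per library (TPM) in polyadenylated RNA of cultured mouse cells. The 37 libraries fell into 11 groups. The set called set 2 here held 3 libraries each of marrow cells from young mice without a tumor (yBM), marrow cells from tumor-bearing mice (BMT) and osteosarcoma tumor cells, for mice with deletion of Wwox and Trp53 (DKO) and for mice with deletion of Trp53 alone (SKO), and 3 libraries of WT control marrow. The set called set 1 here held DKO mice and WT controls only, with 6 yBM libraries (3 taken at 4 months and 3 at 1.5 months of age), 3 BMT, 3 tumor and 4 control libraries. Ages of the other mice were not given in the labels. In both genotypes the deletion was driven by Osx1-Cre, which is active in progenitors committed to bone, and a Rosa26 tdTomato reporter marked the cells that had met Cre. The marrow or tumor cells were grown in culture until tdTomato-positive cells dominated, so the libraries describe cultured cells, not fresh tissue, and cells without Cre activity could remain. The control marrow was wild type by label and carried no deletion. Sources of the study differ on whether the control animals carried Cre. The comparisons within a set share their control libraries, and replicate numbers alone say that libraries are separate, so p-values measure the spread between these samples. The study calls its tumor and BMT cells paired, so these groups may share mice. The labels do not give the pairs, and the fits took these libraries as independent. In bulk RNA, fewer cells of a type and less RNA per cell cannot be told apart.

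The labels were first held against the targeted genes. Trp53 lay under 50% of the control mean in all 18 deleted libraries of set 2, and in 10 of 12 of set 1, where BMT 2 and BMT 3 kept 63.3% and 72.1% of it. Wwox went against the label more often. In set 2 the libraries labelled DKO tumor 1 to 3 kept 146%, 133% and 119% of its level in controls, while those labelled SKO BMT 2 and 3 held 2.84% and 2.39%, and SKO BMT 1 held 329%. In set 1 it was at or over 50% in 7 of the 12 DKO libraries (yBM 2 to 6, BMT 1 and tumor 1). Control BM 3 of set 1, wild type by label, held 32.0% of the control mean of Wwox. A value under 50% does not by itself mark a deletion in that set. Directions between DKO and SKO in BMT and tumor therefore rest on labels that this transcript contradicts. In the set 2 yBM libraries Wwox followed the labels, at 0.803% to 21.7% of controls in DKO and 87.1% to 219% in SKO. The comparisons against control and the set 1 slope on Ptprc are also given without the libraries whose Wwox went against the label. Mesenchymal marker genes were high in every group, with a list mean of 5.17 to 8.27 on the log2(TPM + 1) scale. Mitochondrial transcripts took 5.32% to 32.5% of the total, the highest share in control WT 1 of set 2, a library that was the lowest of its group for 31 of the 33 members and for 75.7% of all genes tested. TPM keeps no read depth, so the depth behind each value is unknown.

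Promoter windows from 250 bases before to 50 bases after the annotated start were on hand for 25 of the 33 members (29 windows, RefSeq annotation of GRCm38.p6). Mx1, Mx2, Usp18, Rtp4, Parp14, Parp9, Zbp1 and Ifi27 had no window. The ISRE was searched on both strands as GAAANNGAAA and the GAS as TTCNNNGAA. The ISRE letters were found in 14 of 25 members (56.0%), against 1079 of all 27025 genes with a window (3.99%). The GAS letters were found in 7 of 25 members (28.0%), against 2582 of 27025 genes (9.55%), and overlapped an ISRE match in Bst2 and Ifitm3. The windows printed here were picked among members with ISRE letters. They belong to Isg15, Ifit1, Ifit3 and Oas1a, whose levels varied between libraries, and to Rsad2 and Bst2 as low and high antiviral effectors. A guanylate-binding protein (Gbp2) and Trim30a, one of the members that sat under the controls, were added. Oasl2 and Irf7, among the members with the widest swings, held no ISRE letters in their windows, and Usp18 had no window. Capitals mark the bases of ISRE matches, and each run reads 5′ to 3′ on the gene's strand.
Isg15, chr4:156200856-156200915, minus strand: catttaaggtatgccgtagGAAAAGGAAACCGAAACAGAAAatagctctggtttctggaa
Ifit1, chr19:34640769-34640828, plus strand: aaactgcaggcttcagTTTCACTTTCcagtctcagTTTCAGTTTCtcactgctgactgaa
Ifit3, chr19:34583363-34583426, plus strand: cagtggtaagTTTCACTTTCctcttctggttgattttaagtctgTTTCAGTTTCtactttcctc
Oas1a, chr5:120907508-120907567, minus strand: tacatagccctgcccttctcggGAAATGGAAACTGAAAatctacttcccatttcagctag
Rsad2, chr12:26456538-26456597, minus strand: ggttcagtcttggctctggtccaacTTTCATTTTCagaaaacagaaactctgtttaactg
Bst2, chr8:71537565-71537624, minus strand: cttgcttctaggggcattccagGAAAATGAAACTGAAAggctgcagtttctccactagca
Gbp2, chr3:142620579-142620638, plus strand: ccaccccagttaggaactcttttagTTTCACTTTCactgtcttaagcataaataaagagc
Trim30a, chr7:104465195-104465254, minus strand: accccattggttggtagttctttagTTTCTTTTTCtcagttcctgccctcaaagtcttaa
Isg15 had 3 overlapping matches that began at -78, -72 and -66 from the start, in a run of 22 capitals. Ifit1 and Ifit3 each had a pair, from -104 and -85 in Ifit1 and from -156 and -122 in Ifit3. Stat2, Gbp3, Gbp7, Ifih1, Ifitm3 and Eif2ak2 also held ISRE letters. Ifit2, Oasl2, Irf7, Irf9, Ifi44, Xaf1, Ifi35, Dtx3l, Herc6, Cmpk2 and Samd9l did not, within this window. A match is a description of letters and was not tested as a binding site.

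**Figure D1:**
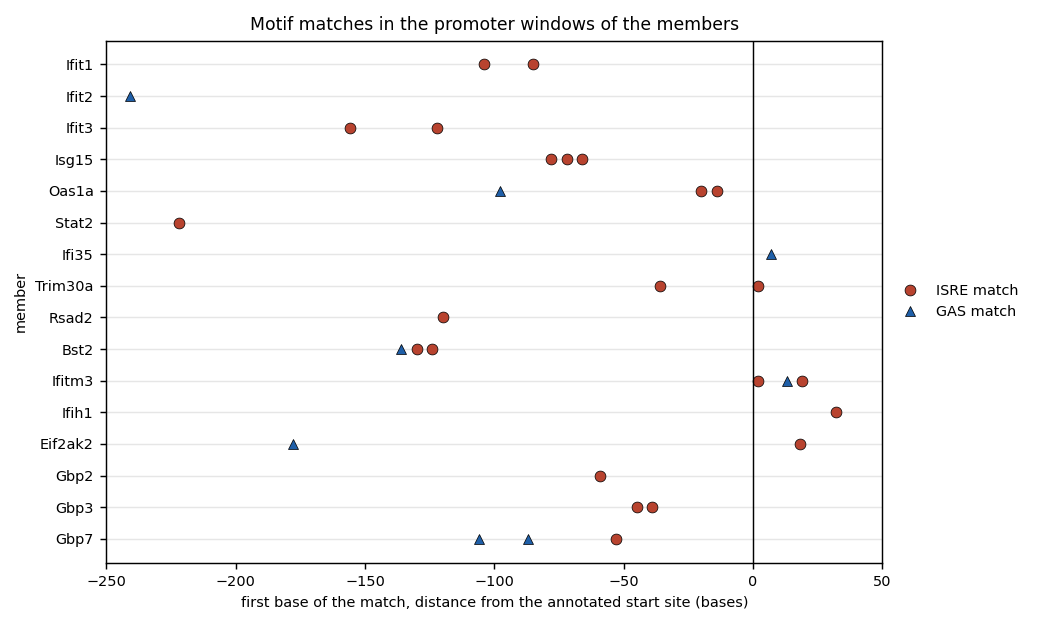
Positions of ISRE (circles) and GAS (triangles) letter matches in the promoter windows of the 16 members that held either, in bases from the annotated start (0, vertical line). Most ISRE matches lie shortly before the start, as in Isg15 (-78 to -66), while those of Ifih1, Ifitm3, Eif2ak2 and the second window of Trim30a lie just after it.

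The first thing the values show is that the members were high or low together from library to library inside groups of one label. In set 2, DKO yBM 3 was the highest of its group for 30 of 33 members and SKO yBM 1 for 32. Likewise DKO BMT 1 was highest for 31, DKO tumor 1 for 31 and SKO tumor 3 for 30, while DKO BMT 3 was the lowest of its group for 32. Among the deletion groups of set 2, SKO BMT was the exception. There the highest value was in library 1 for 10 members (41.4% of all genes), library 2 for 17 (39.8%) and library 3 for 6 (18.8%). In the control groups of both sets the highest values were also divided between libraries. In set 1, DKO tumor 1 was highest for 32 of 33 members, BMT 3 for 30 and yBM 4 for 19 of 33, and yBM 6 was lowest for 26. Other genes did not peak in these libraries to that extent. Outside SKO BMT, the libraries named as highest were so for 26.7% to 42.3% of all genes tested, among groups of 3. In the group of 6, yBM 4 was highest for 29.6%. For the low libraries, DKO BMT 3 of set 2 was the lowest of its group for 59.2% of all genes tested. Its low place was therefore shared by most genes, though by a larger part of the members. In set 1, yBM 6 was lowest for 11.98% of all genes tested.

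The within-group spread of the members was wide. The median SD of the members, on the log2(TPM + 1) scale, was 1.26 in DKO yBM, 1.00 in SKO yBM, 1.34 in DKO BMT, 1.14 in DKO tumor and 1.08 in SKO tumor of set 2. Over all genes tested the corresponding medians were 0.29, 0.23, 0.52, 0.36 and 0.72. In SKO BMT the members' median SD of 0.49 was close to that of all genes (0.47), and in the set 2 controls it was 0.40, beside 0.41 for all genes. In set 1 it was 0.64 in DKO yBM, 1.22 in DKO BMT, 1.36 in DKO tumor and 0.50 in control BM, beside 0.38, 0.47, 0.48 and 0.39 for all genes. The widest members were Oasl2, with a median range of 4.08 log2 units inside a group over the 11 groups, Isg15 (3.82), Ifit3 (3.74), Usp18 (3.39) and Irf7 (3.37). The narrowest were Eif2ak2 (0.55), Mx1 (0.79) and Ifit2 (0.88). Mx1 was close to the floor of this scale, which makes its range too small. It had a median of 0.30 TPM over the 37 libraries and ran from 0.020 to 4.49 TPM.

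**Figure D2:**
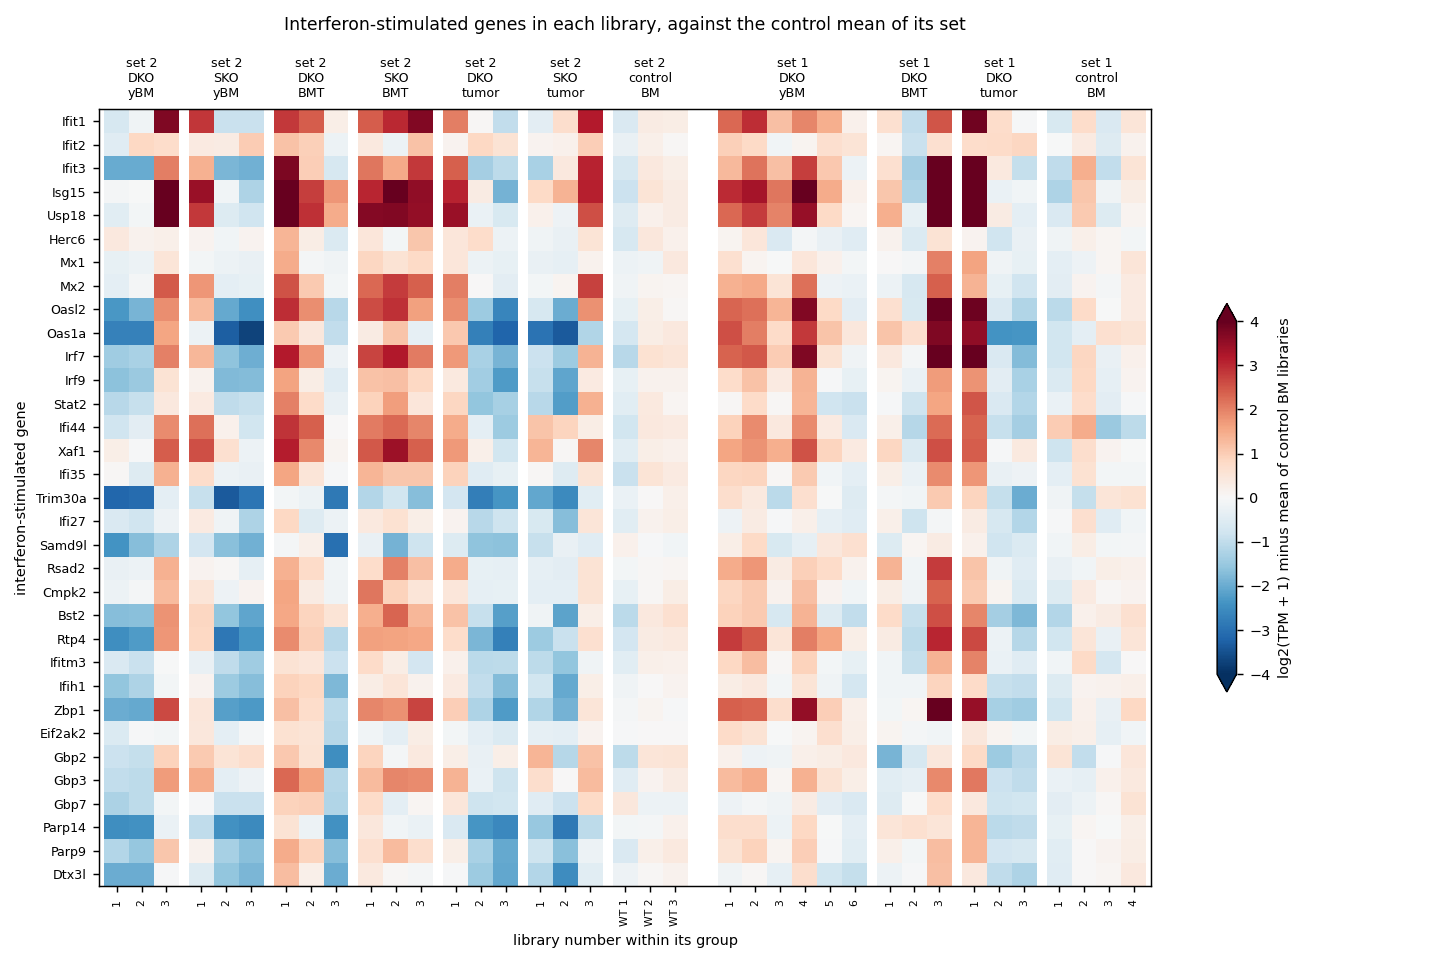
Each of the 33 members (rows) in each of the 37 libraries (columns), as log2(TPM + 1) minus the mean of the control BM libraries of its set, with red above and blue below that mean and the colour scale ending at 4 in either direction. Single libraries stand out as red columns (set 2 DKO yBM 3, SKO yBM 1, DKO BMT 1, DKO tumor 1 and SKO tumor 3, set 1 DKO BMT 3 and DKO tumor 1), and the 3 SKO BMT columns of set 2 are red for most members.

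In the BMT groups of set 2, Isg15 and Usp18 of the ISG15 system came first in size of change. Isg15, a ubiquitin-like protein that is attached to target proteins after interferon, had 270.5, 88.6 and 43.9 TPM in DKO BMT and 109, 280.4 and 155 TPM in SKO BMT, against 6.28, 18.2 and 15.6 TPM in the control BM of set 2. Every BMT library of both genotypes lay above every control. In the same set, Isg15 had 11.5, 12 and 243 TPM in DKO yBM, 145, 11.1 and 4.68 TPM in SKO yBM, 109.9, 15.7 and 2.54 TPM in DKO tumor and 22, 33.9 and 112 TPM in SKO tumor. SKO tumor also lay wholly above the controls, whereas the yBM groups and DKO tumor each held a library over 100 TPM beside values among or under the controls. In set 1 Isg15 had a lowest of 14, a median of 80.5 and a highest of 211 TPM over the 6 DKO yBM libraries, with 27.5, 4.54 and 359.8 TPM in DKO BMT 1, 2 and 3 and 222, 10.01 and 10.8 TPM in DKO tumor 1, 2 and 3, against 4.57, 27.6, 10.6 and 15 TPM in control BM. Set 1 groups overlapped their controls, with the highest Isg15 value of the series in BMT 3.

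Usp18, which removes ISG15 from proteins and also damps the type I receptor, followed the same libraries. It had 38.8, 15.8 and 5.14 TPM in DKO BMT and 27, 27.5 and 24.2 TPM in SKO BMT, against 0.53, 1.52 and 1.72 TPM in control BM of set 2, with no overlap in either case. The 3 SKO BMT values were close together, within 0.18 log2 units of each other. Usp18 had 0.616, 1.04 and 38.5 TPM in DKO yBM, 14.6, 0.50 and 0.266 TPM in SKO yBM, 22.9, 0.81 and 0.40 TPM in DKO tumor and 1.53, 0.897 and 12.1 TPM in SKO tumor, so that 1 library in each group was high and the others lay near the controls. In set 1 the values had a lowest of 1.58, a median of 9.87 and a highest of 26.1 TPM over the 6 DKO yBM libraries, with 5.7, 0.955 and 55.9 TPM in DKO BMT 1, 2 and 3 and 52.6, 2.07 and 0.871 TPM in DKO tumor 1, 2 and 3, against 0.613, 4.02, 0.688 and 1.63 TPM in control BM, and each group overlapped the controls. Herc6, the main ISG15 ligase of mouse cells, varied less: it ranged over 2.45 to 7.02 TPM in SKO BMT and 1.37 to 4.1 TPM in control BM of set 2, and peaked at 8.60 TPM in DKO BMT 1.

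The IFIT genes encode proteins that bind viral RNA and hold back its translation. Ifit1 had 24.3, 17.9 and 3.27 TPM in DKO BMT and 18, 28 and 45.6 TPM in SKO BMT, against 1.34, 3.43 and 3.33 TPM in control BM of set 2. SKO BMT lay wholly above the controls, while DKO BMT 3 fell among them. Ifit1 had 1.22, 2.18 and 45.9 TPM in DKO yBM, 25, 0.931 and 0.926 TPM in SKO yBM, 13.6, 2.69 and 0.799 TPM in DKO tumor and 1.68, 4.85 and 31.1 TPM in SKO tumor, each group split between 1 high library and lower ones. In set 1 Ifit1 had a lowest of 2.55, a median of 9.17 and a highest of 23 TPM over the 6 DKO yBM libraries, with 3.74, 0.542 and 16.6 TPM in DKO BMT 1, 2 and 3 and 44.1, 4.15 and 1.95 TPM in DKO tumor 1, 2 and 3, against 0.962, 4.1, 1.01 and 3.42 TPM in control BM. The groups overlapped, and tumor 1 was the highest set 1 library.

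Ifit3 had 96.9, 13.4 and 3.54 TPM in DKO BMT and 31.3, 20.01 and 50.1 TPM in SKO BMT, against 3.6, 8.65 and 7.65 TPM in control BM of set 2. Again SKO BMT did not overlap the controls and DKO BMT did. In the other set 2 groups Ifit3 had 0.799, 0.794 and 29.4 TPM in DKO yBM, 18.4, 1.04 and 0.924 TPM in SKO yBM, 37.1, 1.84 and 2.48 TPM in DKO tumor and 1.93, 8.75 and 60.3 TPM in SKO tumor, where libraries 1 and 2 of DKO yBM and 2 and 3 of SKO yBM lay below all controls. In set 1 it had a lowest of 3.71, a median of 12.1 and a highest of 37.1 TPM over the 6 DKO yBM libraries, with 7.62, 1.17 and 95.8 TPM in DKO BMT 1, 2 and 3 and 153, 6.27 and 1.88 TPM in DKO tumor 1, 2 and 3, against 1.75, 14.2, 1.83 and 7.05 TPM in control BM. The set 1 groups overlapped the controls, with BMT 3 and tumor 1 high. Mouse cells carry a close copy, Ifit3b, so reads of the pair may have been divided between them and the Ifit3 level is uncertain.

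Ifit2 departed from the others. It had 8.33, 7.06 and 2.55 TPM in DKO BMT and 4.43, 2.55 and 8.38 TPM in SKO BMT, against 2.39, 3.95 and 3.35 TPM in control BM of set 2, and both groups overlapped the controls. The values were 2.0, 6.45 and 5.95 TPM in DKO yBM, 4.38, 4.28 and 7.48 TPM in SKO yBM, 3.57, 6.49 and 5.18 TPM in DKO tumor and 3.58, 3.78 and 7.22 TPM in SKO tumor, with SKO yBM wholly above the controls. Set 1 gave a lowest of 2.67, a median of 5.16 and a highest of 6.85 TPM over the 6 DKO yBM libraries, with 3.29, 1.18 and 5.33 TPM in DKO BMT 1, 2 and 3 and 5.71, 5.91 and 6.38 TPM in DKO tumor 1, 2 and 3, against 2.99, 4.19, 1.81 and 3.57 TPM in control BM, and the 3 tumor libraries lay above all 4 controls. It did not share the peaks of DKO yBM 3 or tumor 1 that Ifit1 and Ifit3 showed.

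The MX proteins are GTPases that trap viral nucleoproteins, and the mouse Mx1 gene is defective in many inbred strains. Mx1 was close to the floor of the scale, with 2.62, 0.242 and 0.159 TPM in DKO BMT and 1.36, 0.929 and 1.24 TPM in SKO BMT, against 0.106, 0.144 and 0.731 TPM in control BM of set 2. It had 0.0379, 0.0967 and 0.872 TPM in DKO yBM, 0.197, 0.106 and 0.0618 TPM in SKO yBM, 0.809, 0.113 and 0.0454 TPM in DKO tumor and 0.0674, 0.020 and 0.472 TPM in SKO tumor, values under 1 TPM throughout. In set 1 Mx1 had a lowest of 0.265, a median of 0.536 and a highest of 1.14 TPM over the 6 DKO yBM libraries, with 0.372, 0.298 and 4.49 TPM in DKO BMT 1, 2 and 3 and 3.17, 0.222 and 0.0843 TPM in DKO tumor 1, 2 and 3, against 0.0575, 0.197, 0.442 and 0.94 TPM in control BM. Only BMT 3, tumor 1 and 1 yBM library passed the highest set 1 control.

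Mx2 was better expressed, with 7.37, 1.91 and 0.309 TPM in DKO BMT and 6.01, 8.92 and 6.36 TPM in SKO BMT, against 0.251, 0.528 and 0.49 TPM in control BM of set 2. SKO BMT did not overlap the controls, and DKO BMT 3 did. It had 0.0829, 0.331 and 6.75 TPM in DKO yBM, 3.82, 0.0705 and 0.132 TPM in SKO yBM, 4.85, 0.42 and 0.0497 TPM in DKO tumor and 0.305, 0.526 and 8.33 TPM in SKO tumor. In set 1 the values had a lowest of 0.71, a median of 3.29 and a highest of 8.54 TPM over the 6 DKO yBM libraries, with 0.759, 0.302 and 9.72 TPM in DKO BMT 1, 2 and 3 and 4.46, 0.632 and 0.18 TPM in DKO tumor 1, 2 and 3, against 0.541, 1.27, 0.96 and 1.65 TPM in control BM. The high libraries were those of Isg15, and each set 1 group overlapped the controls.

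The OAS family makes oligoadenylates that switch on RNase L. Oas1a, an active synthetase, had 27.4, 18 and 5.98 TPM in DKO BMT and 16.4, 29.4 and 9.75 TPM in SKO BMT, against 7.54, 15.9 and 17.5 TPM in control BM of set 2, and both overlapped the controls. It had 1.11, 1.12 and 40.4 TPM in DKO yBM, 10.9, 0.417 and 0.0664 TPM in SKO yBM, 28, 1.07 and 0.518 TPM in DKO tumor and 0.804, 0.356 and 5.0 TPM in SKO tumor. All SKO tumor libraries lay below all controls, and so did libraries 1 and 2 of DKO yBM, 2 and 3 of SKO yBM and 2 and 3 of DKO tumor. The set 1 values had a lowest of 8.12, a median of 20.2 and a highest of 46.4 TPM over the 6 DKO yBM libraries, with 13.9, 9.74 and 87.5 TPM in DKO BMT 1, 2 and 3 and 76.9, 0.289 and 0.311 TPM in DKO tumor 1, 2 and 3, against 2.95, 4.08, 9.43 and 8.73 TPM in control BM, and the BMT libraries all lay above the controls. Oas1a has close copies in the mouse genome, so its level may include or lack reads of those.

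Oasl2, an OAS-like protein with ubiquitin-like repeats, had 86.1, 39 and 4.15 TPM in DKO BMT and 66.4, 84.3 and 33.9 TPM in SKO BMT, against 7.93, 12.3 and 10.6 TPM in control BM of set 2. SKO BMT lay above the controls without overlap. It had 1.22, 2.1 and 39.5 TPM in DKO yBM, 25.6, 1.72 and 1.02 TPM in SKO yBM, 39.6, 3.1 and 0.779 TPM in DKO tumor and 5.99, 1.81 and 38.5 TPM in SKO tumor, with the low libraries of each group under every control. In set 1 Oasl2 had a lowest of 6.31, a median of 34.2 and a highest of 128 TPM over the 6 DKO yBM libraries, with 14.1, 5.28 and 163 TPM in DKO BMT 1, 2 and 3 and 149, 5.48 and 3.21 TPM in DKO tumor 1, 2 and 3, against 3.61, 15.5, 8.6 and 11.5 TPM in control BM. Here BMT 3 and tumor 1 were each over 100 TPM while their group mates were among or under the controls.

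Among the transcription factors, Irf7 drives the interferon genes themselves and is induced by interferon. It had 47.6, 17.4 and 3.69 TPM in DKO BMT and 34.5, 49.3 and 22 TPM in SKO BMT, against 1.51, 7.24 and 6.7 TPM in control BM of set 2, with SKO BMT above all controls. Irf7 had 1.03, 1.23 and 20.8 TPM in DKO yBM, 12.5, 0.789 and 0.397 TPM in SKO yBM, 17, 1.22 and 0.489 TPM in DKO tumor and 2.0, 0.983 and 13.1 TPM in SKO tumor, and the high library of each group passed all controls. In set 1, it showed a lowest of 3.79, a median of 18.1 and a highest of 70.3 TPM over the 6 DKO yBM libraries, with 6.19, 4.15 and 101 TPM in DKO BMT 1, 2 and 3 and 107, 2.56 and 0.619 TPM in DKO tumor 1, 2 and 3, against 2.18, 8.71, 3.42 and 5.13 TPM in control BM. The 2 values over 100 TPM were again BMT 3 and tumor 1.

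Irf9 and Stat2 are parts of the complex that binds the ISRE. Irf9 had 58.2, 23.2 and 12.9 TPM in DKO BMT and 42.6, 43.4 and 33.2 TPM in SKO BMT, against 14.4, 20.9 and 21 TPM in control BM of set 2. It had 5.26, 5.98 and 28.1 TPM in DKO yBM, 21, 4.67 and 4.85 TPM in SKO yBM, 24.5, 6.41 and 3.06 TPM in DKO tumor and 9.19, 3.47 and 24.2 TPM in SKO tumor. The SKO BMT values were all above the controls, and the others straddled them. In set 1 Irf9 had a lowest of 11.2, a median of 21.6 and a highest of 39.2 TPM over the 6 DKO yBM libraries, with 15.6, 11.7 and 49.1 TPM in DKO BMT 1, 2 and 3 and 52, 10.3 and 5.17 TPM in DKO tumor 1, 2 and 3, against 9.13, 25.8, 10.9 and 15.7 TPM in control BM, with overlap in each case.

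Stat2 had 55.4, 22.4 and 10.3 TPM in DKO BMT and 25.3, 43.4 and 18.5 TPM in SKO BMT, against 9.07, 17.2 and 13.7 TPM in control BM of set 2. The lowest SKO BMT value was just above the highest control. Stat2 had 5.5, 6.33 and 17.8 TPM in DKO yBM, 16.8, 5.92 and 6.33 TPM in SKO yBM, 24.2, 3.69 and 4.54 TPM in DKO tumor and 5.42, 1.95 and 36.3 TPM in SKO tumor. In set 1 it had a lowest of 6.47, a median of 13.3 and a highest of 34.3 TPM over the 6 DKO yBM libraries, with 12.4, 6.79 and 40.02 TPM in DKO BMT 1, 2 and 3 and 78.2, 8.14 and 5.11 TPM in DKO tumor 1, 2 and 3, against 10.5, 21.8, 9.45 and 12.4 TPM in control BM. All of these groups overlapped their controls, and the split inside each group followed that of Irf9.

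Of the nucleic acid sensors, Ifih1 (MDA5) detects long double-stranded RNA. It had 8.98, 8.49 and 0.53 TPM in DKO BMT and 5.49, 6.67 and 4.92 TPM in SKO BMT, against 3.76, 4.36 and 4.87 TPM in control BM of set 2. The SKO BMT values were above the controls by a small margin, and DKO BMT 3 was below all of them. It had 0.794, 1.24 and 3.95 TPM in DKO yBM, 4.87, 0.935 and 0.644 TPM in SKO yBM, 5.76, 1.68 and 0.588 TPM in DKO tumor and 2.1, 0.295 and 5.44 TPM in SKO tumor. In set 1 the values had a lowest of 2.41, a median of 4.9 and a highest of 6.98 TPM over the 6 DKO yBM libraries, with 3.95, 3.97 and 9.21 TPM in DKO BMT 1, 2 and 3 and 8.39, 1.89 and 1.81 TPM in DKO tumor 1, 2 and 3, against 2.79, 5.02, 5.2 and 5.51 TPM in control BM, and every group overlapped the controls.

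Zbp1, a sensor of left-handed nucleic acid that can start necroptosis, had 10.6, 7.51 and 1.43 TPM in DKO BMT and 18.5, 17.1 and 31.9 TPM in SKO BMT, against 3.8, 4.52 and 3.96 TPM in control BM of set 2. SKO BMT was clear of the controls. It had 0.298, 0.236 and 30.8 TPM in DKO yBM, 6.07, 0.0958 and 0.0239 TPM in SKO yBM, 9.12, 1.16 and 0.0606 TPM in DKO tumor and 1.2, 0.369 and 6.28 TPM in SKO tumor, and the low yBM libraries were at 0.298 TPM or less. In set 1 Zbp1 had a lowest of 4.39, a median of 15 and a highest of 51.6 TPM over the 6 DKO yBM libraries, with 3.23, 3.8 and 80.1 TPM in DKO BMT 1, 2 and 3 and 50.1, 0.812 and 0.722 TPM in DKO tumor 1, 2 and 3, against 1.7, 4.31, 2.75 and 7.17 TPM in control BM, with BMT 3 the highest of the series. Eif2ak2, the kinase PKR that halts translation on double-stranded RNA, stayed within 7.02 to 25.8 TPM in all 37 libraries, and was below all controls in DKO yBM and DKO tumor of set 2.

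The membrane factors included some of the most abundant members. Bst2 (tetherin), which holds budding virus at the cell surface, had 138, 88.9 and 68.7 TPM in DKO BMT and 131, 237 and 119.9 TPM in SKO BMT, against 21.9, 63.8 and 73.4 TPM in control BM of set 2. SKO BMT lay above the controls and DKO BMT overlapped them. It had 13.7, 14.1 and 166 TPM in DKO yBM, 85.3, 15 and 10.1 TPM in SKO yBM, 106, 24.1 and 9.41 TPM in DKO tumor and 41.2, 9.79 and 56.6 TPM in SKO tumor. In set 1 Bst2 had a lowest of 20.4, a median of 53.3 and a highest of 109.7 TPM over the 6 DKO yBM libraries, with 71.2, 21.1 and 252 TPM in DKO BMT 1, 2 and 3 and 164, 15.6 and 11.2 TPM in DKO tumor 1, 2 and 3, against 17.6, 47.3, 52.1 and 65.3 TPM in control BM, and all 3 groups overlapped the controls.

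Ifitm3, which blocks fusion of virus with the endosome membrane, had the highest level of the members in all 37 libraries. It had 1185, 1119 and 444 TPM in DKO BMT and 1374, 995 and 485 TPM in SKO BMT, against 591, 943 and 923 TPM in control BM of set 2. It had 527, 431 and 801 TPM in DKO yBM, 658, 399 and 297 TPM in SKO yBM, 925, 378 and 385 TPM in DKO tumor and 389, 266 and 711 TPM in SKO tumor. No group lay wholly above or below the controls. In set 1 Ifitm3 had a lowest of 421, a median of 739 and a highest of 1232 TPM over the 6 DKO yBM libraries, with 473, 269 and 1392 TPM in DKO BMT 1, 2 and 3 and 2091, 442 and 377 TPM in DKO tumor 1, 2 and 3, against 477, 919, 326 and 535 TPM in control BM. These groups overlapped as well, and tumor 1 was the highest. Rtp4, an interferon-induced receptor transporter protein, held 56.1 to 60.4 TPM in SKO BMT, against 10.9 to 24.8 TPM in control BM of set 2, and 2.55 to 66.6 TPM across DKO yBM.

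Rsad2 (viperin), which makes a chain-terminating nucleotide, was a low member. It had 2.59, 1.26 and 0.23 TPM in DKO BMT and 1.24, 4.49 and 2.08 TPM in SKO BMT, against 0.239, 0.375 and 0.429 TPM in control BM of set 2, with SKO BMT above the controls. Rsad2 had 0.0965, 0.139 and 2.58 TPM in DKO yBM, 0.49, 0.391 and 0.0444 TPM in SKO yBM, 2.8, 0.0801 and 0.0536 TPM in DKO tumor and 0.044, 0.014 and 1.02 TPM in SKO tumor. Set 1 gave a lowest of 0.681, a median of 1.73 and a highest of 4.16 TPM over the 6 DKO yBM libraries, with 2.97, 0.376 and 9.46 TPM in DKO BMT 1, 2 and 3 and 2.33, 0.342 and 0.0837 TPM in DKO tumor 1, 2 and 3, against 0.217, 0.351, 0.792 and 0.728 TPM in control BM. Set 1 groups overlapped, with BMT 3 highest. Cmpk2, the nucleotide kinase encoded next to Rsad2, ranged over 0.975 to 5.04 TPM in SKO BMT, against 0.0949 to 0.694 TPM in control BM of set 2, and did not exceed 8.03 TPM in any library.

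The guanylate-binding proteins are GTPases that attack the membranes around intracellular pathogens. Gbp2 had 30.3, 20.9 and 1.65 TPM in DKO BMT and 26.5, 12.9 and 18.3 TPM in SKO BMT, against 6.07, 19.99 and 20.4 TPM in control BM of set 2. It had 7.01, 6.55 and 27 TPM in DKO yBM, 29, 20.7 and 23.1 TPM in SKO yBM, 16.8, 11.1 and 16.8 TPM in DKO tumor and 36.7, 5.69 and 31.9 TPM in SKO tumor, with SKO yBM above all controls. In set 1 Gbp2 had a lowest of 28.7, a median of 38.6 and a highest of 44.6 TPM over the 6 DKO yBM libraries, with 8.34, 20.2 and 45.5 TPM in DKO BMT 1, 2 and 3 and 58.3, 11.3 and 14.8 TPM in DKO tumor 1, 2 and 3, against 48.1, 16.1, 32 and 46.8 TPM in control BM, where it overlapped. Gbp3 was at 7.63 to 12.9 TPM in SKO BMT, against 1.57 to 3.5 TPM in control BM of set 2, without overlap. Gbp7 did not exceed 4.66 TPM anywhere. Members of this family are similar in sequence, so their separate levels are uncertain.

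Xaf1, a partner of the apoptosis inhibitor XIAP, was the member that passed the test. It had 162, 69.4 and 18.9 TPM in DKO BMT and 102, 198 and 96.1 TPM in SKO BMT, against 12.4, 21.2 and 20.1 TPM in control BM of set 2. The 3 SKO BMT values lay above all controls, as did DKO BMT 1 and 2. Xaf1 had 21.1, 16.9 and 97.8 TPM in DKO yBM, 109.8, 27.9 and 14.8 TPM in SKO yBM, 61, 20.7 and 9.85 TPM in DKO tumor and 46.3, 18.2 and 70.7 TPM in SKO tumor, and these overlapped the controls. The set 1 values had a lowest of 32.2, a median of 73.3 and a highest of 149.8 TPM over the 6 DKO yBM libraries, with 45.5, 16.4 and 153 TPM in DKO BMT 1, 2 and 3 and 138, 24.3 and 33 TPM in DKO tumor 1, 2 and 3, against 13.6, 41.3, 27.7 and 24.4 TPM in control BM, and all 6 yBM libraries lay above 3 of the 4 controls.

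Some members sat under the set 2 controls in several groups. Of 33 members, 4 lay below all controls in DKO yBM (20.2% of all genes), 4 in SKO yBM (17.2%) and 4 in DKO tumor (17.9%). In SKO tumor 5 did so (15.5%), and in SKO BMT 2 (16.8%). In none of these groups did the members lie below all controls more often than genes at large. Trim30a, a mouse TRIM protein that restrains inflammatory signalling, had 0.313, 0.396 and 8.08 TPM in DKO yBM, 5.28, 0.148 and 0.568 TPM in SKO yBM, 9.97, 9.07 and 0.645 TPM in DKO BMT, 4.29, 5.96 and 2.64 TPM in SKO BMT, 6.13, 0.759 and 1.31 TPM in DKO tumor and 1.79, 1.03 and 7.78 TPM in SKO tumor, against 8.91, 11 and 13.1 TPM in control BM. All groups but DKO BMT lay wholly below the controls. Parp14, an ADP-ribosyltransferase, had 0.749, 0.818 and 7.07 TPM in DKO yBM, 3.86, 0.834 and 0.659 TPM in SKO yBM, 5.32, 0.90 and 0.637 TPM in DKO tumor and 2.41, 0.333 and 3.73 TPM in SKO tumor, against 7.95, 8.16 and 10.3 TPM in control BM, with no overlap in any of the 4. Samd9l, which restrains protein synthesis and growth, had 2.26, 4.21 and 6.31 TPM in DKO yBM, 9.31, 4.35 and 3.5 TPM in SKO yBM, 13, 3.58 and 8.49 TPM in SKO BMT, 10.7, 4.55 and 4.5 TPM in DKO tumor and 7.96, 12.9 and 11.2 TPM in SKO tumor, against 18.8, 15.3 and 14.3 TPM in control BM, also below without overlap. The BMT groups not listed overlapped the controls. There Samd9l had 15.2, 18.9 and 1.08 TPM in DKO BMT. Parp14 had 13.5, 7.33 and 0.832 TPM in DKO BMT and 12.2, 7.83 and 7.12 TPM in SKO BMT. Dtx3l, the ubiquitin ligase that pairs with Parp9, ranged over 1.30 to 4.65 TPM in SKO yBM and 0.413 to 4.90 TPM in SKO tumor, against 6.05 to 8.02 TPM in control BM.

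The remaining members spread as follows in set 2. Parp9 ranged over 17.8 to 28 TPM in SKO BMT, against 6.84 to 14.9 TPM in control BM, without overlap. Ifi44, an interferon-induced cytoplasmic protein, ranged over 9.95 to 12.9 TPM in SKO BMT, against 0.663 to 2.76 TPM in control BM. Both were clear of the controls in SKO BMT. Among the SKO tumor libraries, Ifi44 was lowest in library 3 (2.48 TPM), where most members of that group peaked. Ifi35, a partner of NMI, ranged over 43.2 to 52 TPM in SKO BMT, against 10.2 to 28.9 TPM in control BM, again without overlap. Ifi27, a small membrane protein, was abundant in all libraries (36.5 to 218 TPM) and its SKO BMT range of 145 to 186 TPM overlapped the 88.6 to 147 TPM of control BM.

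Against the controls, SKO BMT held the largest median difference of the members, in the upward direction for 30 of the 33. Changes were fitted with limma on log2(TPM + 1), with Benjamini-Hochberg adjustment over all genes tested and a threshold of 0.05. The median member log2 fold change was 1.05, against 0.07 over all genes tested. By limma, 1 of 33 members was called higher (Xaf1, log2 fold change 2.77, SE 0.85, adjusted p = 0.0384, higher in 3 of 3 libraries) and 0 lower, where 5% of all genes were called higher and 8.36% lower. An unadjusted p under 0.05 was found for 10 of 33 members, where 29.1% of all genes had one, and 9 of these members did not pass. Of these Usp18 had a log2 fold change of 3.63 (SE 1.24, limma adjusted p = 0.0602), Isg15 of 3.67 (SE 1.30, limma adjusted p = 0.0695) and Mx2 of 2.50 (SE 0.89, limma adjusted p = 0.0697). For 21 members all SKO BMT libraries lay above all controls (17.8% of all genes did so), and for Samd9l and Trim30a all lay below (16.8% of all genes). With SKO BMT 1 alone 29 members lay above all controls, where 41.4% of all genes did, and without control WT 1 the count was 21, where 19% did (both chosen after seeing the data).

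That call was not stable. Xaf1 missed the threshold when any single SKO BMT or control library was left out (limma adjusted p = 0.0623 to 0.127), with log2 fold changes of 2.43 to 2.95. In a further fit all set 2 libraries whose Wwox went against the label were left out, namely SKO BMT 2 and 3 and DKO tumor 1 to 3. SKO BMT 1 alone then gave a log2 fold change of 2.47 for Xaf1. Conversely, when only the SKO BMT and control libraries entered the fit, 11 members were called higher (Usp18 and Mx2 with limma adjusted p = 0.0081 and 0.00916). The share of all genes called in that fit is not given here, so this count has no background beside it. The fit over the whole set takes its spread from all set 2 groups, and most of those are split inside by the libraries described above. The effect of this on the calls was not tested.

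**Figure D3:**
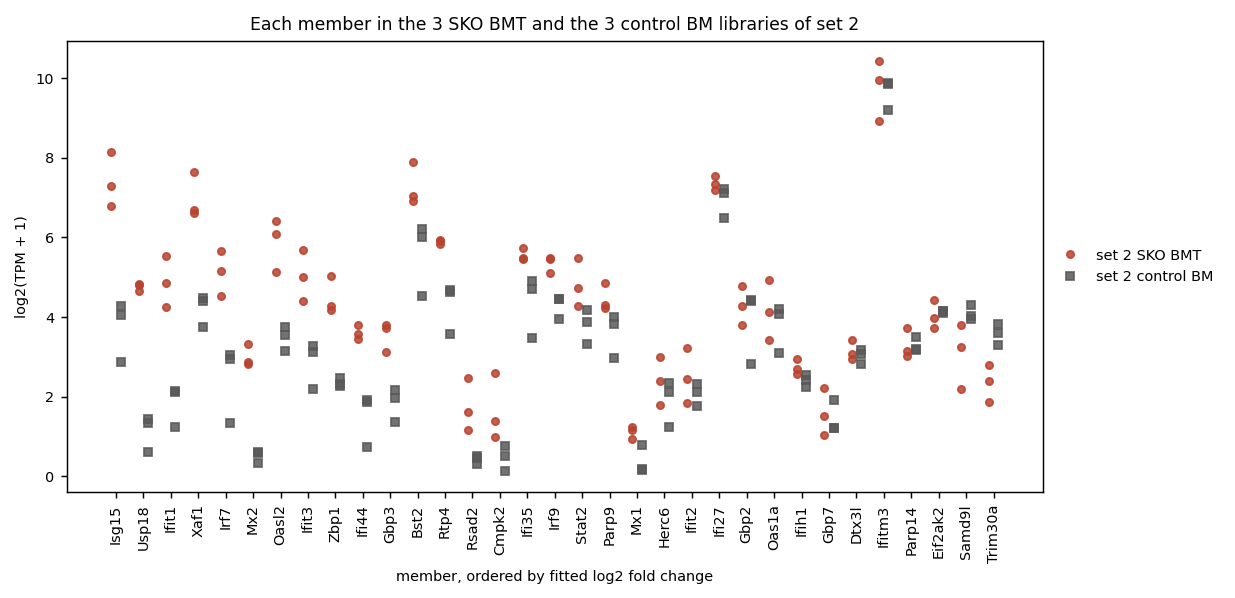
Level of each of the 33 members, as log2(TPM + 1), in the 3 SKO BMT libraries (circles) and the 3 control BM libraries (squares) of set 2, ordered by fitted change. The circles lie wholly above the squares for 21 members, with the widest gaps at Isg15 and Usp18 on the left, and wholly below for Samd9l and Trim30a on the right.

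In DKO BMT the shift was in the same direction for 27 of 33 members, with a median log2 fold change of 0.58 against 0.09 over all genes. By limma 0 members passed (12% of all genes did) and 2 had an unadjusted p under 0.05 (26.9% of all genes). These were Usp18 (log2 fold change 2.87, limma adjusted p = 0.145) and Isg15 (2.96, limma adjusted p = 0.152), also the members whose libraries lay above all controls (15.9% of all genes). DKO BMT set against SKO BMT gave a member median of -0.62, beside 0.00 over all genes. With limma, 0 of 33 members passed in this pair (0% of all genes did) and 0 had an unadjusted p under 0.05 (2.61% of all genes). Zbp1 had the smallest p there, with a log2 difference of -1.86, followed by Mx2 with -1.34 (limma adjusted p = 1 for both).

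In the young marrow of set 2 most members pointed the other way, without a call. In DKO yBM 22 of 33 members were below the controls, with a median log2 fold change of -0.45 beside 0.07 over all genes. With limma 0 members passed (19.5% of all genes did) and 3 had an unadjusted p under 0.05 (32.5% of all genes). Samd9l (-1.77, limma adjusted p = 0.0673) and Trim30a (-2.22, limma adjusted p = 0.0783) came nearest. Eif2ak2, Parp14, Samd9l and Trim30a lay below all controls (20.2% of all genes). Without DKO yBM 3, the high library, Parp14 and Trim30a were called lower. That library stands out by these same members, and the share of all genes called in that fit is not given here.

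SKO yBM gave a median of -0.53, beside 0.24 over all genes, with 20 of 33 members below the controls. By limma 0 members passed (13.5% of all genes did) and 3 had an unadjusted p under 0.05 (29.4% of all genes). Trim30a (-2.41, limma adjusted p = 0.0712) and Parp14 (-1.99, limma adjusted p = 0.0862) were nearest. Gbp2 and Ifit2 lay above all controls (30.9% of all genes) and Dtx3l, Parp14, Samd9l and Trim30a below (17.2% of all genes). Without SKO yBM 1, the high library, Trim30a was called lower. The same limits hold there, since the members themselves mark that library and no share of all genes is given. DKO yBM against SKO yBM had a median of 0.23, beside -0.10 over all genes. Limma called 0 members (0.0207% of all genes), with 0 at an unadjusted p under 0.05 (2.98% of all genes). Gbp2 (-1.07) and Oas1a (1.12) had the smallest p.

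Tumor cells showed no called member either. In DKO tumor the median log2 fold change was -0.38, beside 0.11 over all genes, with 22 of 33 members below the controls. Limma passed 0 members (17.2% of all genes) and 2 had an unadjusted p under 0.05 (30.6% of all genes). Parp14 had -1.85 (limma adjusted p = 0.0999) and Trim30a -1.95 (limma adjusted p = 0.130), and Eif2ak2, Parp14, Samd9l and Trim30a lay below all controls (17.9% of all genes). In SKO tumor the median was -0.20, beside -0.11 over all genes. Limma passed 0 members there (11.6% of all genes) and 1 had an unadjusted p under 0.05 (23.9% of all genes). Parp14 (-1.81, limma adjusted p = 0.140) and Oas1a (-2.50, limma adjusted p = 0.210) had the smallest p. Isg15 lay above all controls (7.46% of all genes), and Dtx3l, Oas1a, Parp14, Samd9l and Trim30a below (15.5% of all genes). DKO tumor against SKO tumor had a median of -0.11, beside 0.25 over all genes. Limma called 0 members (0% of all genes), with 0 at an unadjusted p under 0.05 (8.39% of all genes). The nearest were Samd9l (-0.69) and Ifi44 (-0.91).

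In set 1 the median of the members was positive in each group, without a call. DKO yBM had a median of 0.49, beside -0.22 over all genes, with 29 of 33 members above the controls. By limma 0 members passed (7.81% of all genes did) and 3 had an unadjusted p under 0.05 (27.3% of all genes). Xaf1 (1.44, limma adjusted p = 0.137) and Ifit1 (1.68, limma adjusted p = 0.174) led. DKO BMT had a median of 0.53, beside -0.06 over all genes. Here limma passed 0 members (2.35% of all genes) and 1 had an unadjusted p under 0.05 (19.9% of all genes). Rsad2 (1.36, limma adjusted p = 0.203) and Usp18 (1.89, limma adjusted p = 0.399) came first. Oas1a and Parp14 lay above all controls in DKO BMT (7.14% of all genes), as Ifit2 did in DKO tumor (4.97%). DKO tumor had a median of 0.15, beside -0.09 over all genes. Limma passed 0 members (3.39% of all genes), with 1 at an unadjusted p under 0.05 (22.6% of all genes). Ifit2 (0.79, limma adjusted p = 0.197) and Ifit1 (1.52, limma adjusted p = 0.342) were nearest. Without the libraries whose Wwox went against the label, no member passed in any of the comparisons against control that could still be fitted in either set.

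**Figure D4:**
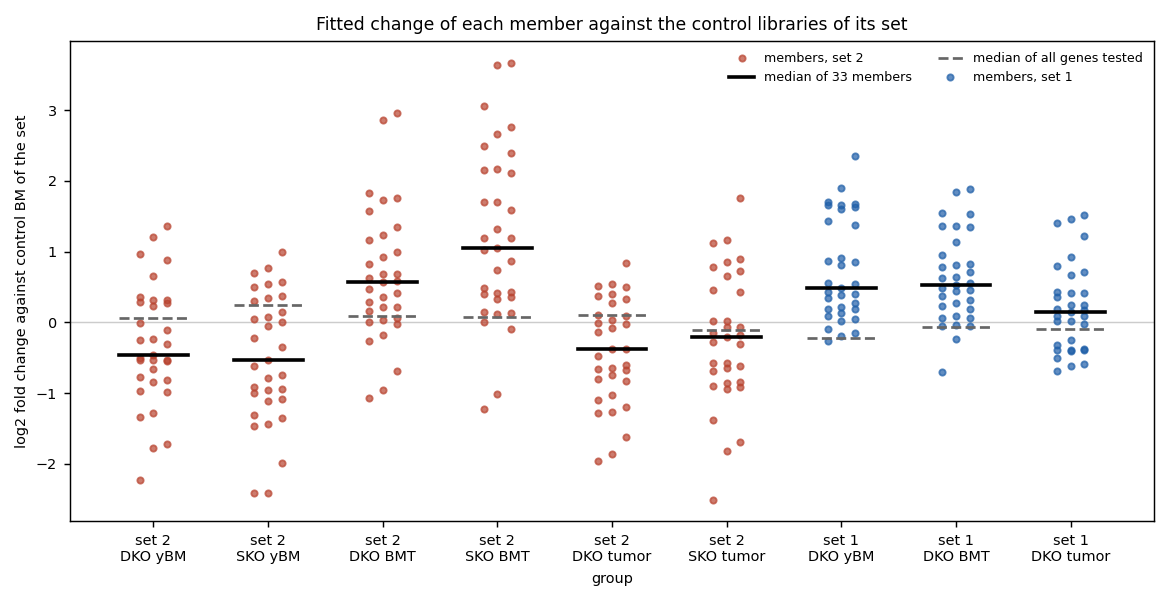
Fitted log2 fold change of each of the 33 members (points) against the control BM of its set, for the 6 groups of set 2 and the 3 groups of set 1, with the median of the members (solid bar) and of all genes tested (dashed bar). The SKO BMT points have the highest median (1.05, with all genes at 0.07), and the yBM and tumor groups of set 2 have member medians below 0.

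By age, the 4-month DKO yBM libraries of set 1 were set against those taken at 1.5 months. Ifit1 had 10.8, 7.50 and 2.55 TPM at 4 months, against 14.0, 23.0 and 6.04 TPM at 1.5 months, with overlap, and the smallest p of the members (log2 difference -0.94, followed by Rsad2 with -0.58, limma adjusted p = 1 for both). With limma 0 members passed (0.00694% of all genes did) and 0 had an unadjusted p under 0.05 (1.08% of all genes). At 4 months 30 of 33 members were lower, with a median of -0.34, beside -0.11 over all genes. Of all genes 31.9% were higher at 4 months. Gbp2 was higher in every 4-month library than in every 1.5-month library (1.28% of all genes).

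The DKO effects against control were also compared between the sets in a joint fit over both. The yBM effect was lower in set 2 (median -0.45 in the fit of that set) than in set 1 (median 0.49) for 32 of 33 members, with a median difference of -0.72 in log2 units, beside 0.33 over all genes. By limma 0 members passed (5.22% of all genes did) and 3 had an unadjusted p under 0.05 (21.4% of all genes). Samd9l came nearest (-1.96, limma adjusted p = 0.109), then Parp14 (-1.99, limma adjusted p = 0.175). For the BMT effect the median difference was 0.05, beside 0.17 over all genes, and its sign changed to -0.13 under median-ratio scaling and to -0.02 with mitochondrial genes removed. Limma passed 0 members for BMT (3.97% of all genes) and 0 had an unadjusted p under 0.05 (13.6% of all genes). Parp14 (-1.24) and Trim30a (-1.34) had the smallest p for BMT. For the tumor effect the median was -0.58, beside 0.15 over all genes. There 0 members passed limma (0.272% of all genes did), with 0 at an unadjusted p under 0.05 (7.74% of all genes). Parp14 (-1.61) and Ifitm3 (-1.06) were nearest for tumor. Whether the sets were cultured and sequenced together is not given in the sources used here, so the set and the state of its cells cannot be told apart.

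Leukocyte content was read from Ptprc and from a list of 21 leukocyte genes. In set 2 Ptprc had 0, 3.57 and 0 TPM in DKO BMT and 0, 3.83 and 0 TPM in SKO BMT, against 41.8, 35.4 and 46.7 TPM in control BM, and did not exceed 0.112 TPM in any yBM or tumor library. The summed leukocyte list reached 8.27 to 1374 TPM in DKO BMT, 9.30 to 3274 TPM in SKO BMT and 10.5 to 39.0 TPM in the yBM and tumor groups, against 23424 to 28554 TPM in control BM. By limma 21 of the 21 were called lower in 5 of the set 2 groups and 20 in SKO BMT. The members followed that order in some libraries and not in others. DKO yBM 3, SKO yBM 1, DKO BMT 1, DKO tumor 1 and SKO tumor 3 had the highest member means of their groups (3.86 to 4.89 on the log2 scale) with Ptprc at 0 to 0.0491 TPM, while the controls had member means of 2.69 to 3.36. DKO yBM 1 and 2, SKO yBM 2 and 3 and DKO BMT 3 had means below every control, with Ptprc at 0 to 0.112 TPM. So did libraries 1 and 2 of SKO tumor and 2 and 3 of DKO tumor (range of all these means 1.82 to 2.63). The part of leukocyte content in these levels was not tested. In SKO BMT, library 2, with 3.83 TPM of Ptprc, had a member mean of 4.41, and libraries 1 and 3, with 0 TPM, had 4.38 and 4.24.

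In set 1 the leukocyte list summed to 1045 to 18322 TPM in DKO yBM, 6947 to 12545 TPM in DKO BMT and 13.7 to 4296 TPM in DKO tumor, against 3186 to 17024 TPM in control BM. Limma called 14 of the 21 lower in DKO tumor, and 0 in DKO yBM and DKO BMT (1 and 0 of them at an unadjusted p under 0.05). Ptprc had a lowest of 2.10, a median of 16.5 and a highest of 29.2 TPM over the 6 DKO yBM libraries, with 19.5, 47.2 and 13.8 TPM in DKO BMT 1, 2 and 3 and 3.59, 0.00861 and 0.0941 TPM in DKO tumor 1, 2 and 3, against 10.9, 5.75, 57.2 and 43.8 TPM in control BM. BMT 3, the high member library, had the lowest Ptprc of its group (13.8 TPM), whereas tumor 1 had the highest of its group (3.59 TPM) and a leukocyte list mean of 6.21, against 0.45 and 0.70 in tumors 2 and 3. In that group the members and the leukocyte genes were high in the same library, and the part of one in the other was not tested.

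The slope of each member on log2(Ptprc + 1) within groups was fitted by limma. In set 1 the median slope was 0.11 log2 units per unit of Ptprc, beside -0.06 over all genes. There 0 members passed (6.58% of all genes did) and 1 had an unadjusted p under 0.05 (23.2% of all genes). Trim30a (0.45, limma adjusted p = 0.0961) and Parp14 (0.27) came first. Trim30a passed when BMT 2 or BMT 3 was left out, in fits whose share of all genes called is not given here. In set 2 the median slope was 0.10, beside 0.09 over all genes. By limma 0 members passed there (2.64% of all genes did), with 0 at an unadjusted p under 0.05 (12.2% of all genes). Mx1 (-0.20) and Herc6 (-0.24) had the smallest p in set 2. Only 2 libraries outside the controls held more than 0.112 TPM of Ptprc in set 2, so that slope rests on few libraries. With Ptprc as a covariate, Xaf1 in SKO BMT was no longer called (limma adjusted p = 0.578). Its log2 fold change was then 4.08 with an SE of 2.08, beside 2.77 and 0.85 in the main fit. In set 2 Ptprc and the difference between controls and the rest cannot be told apart.

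**Figure D5:**
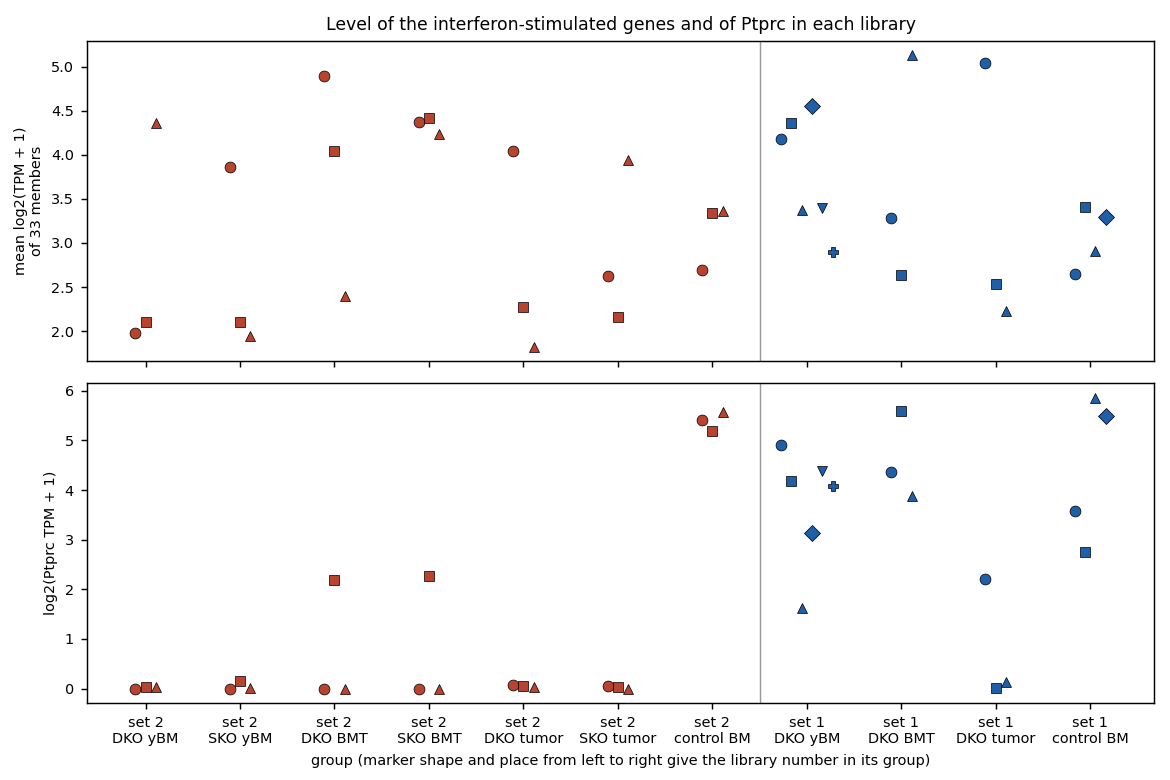
Mean log2(TPM + 1) of the 33 members (top) and log2(Ptprc TPM + 1) (bottom) in each library, by group, with library number shown by marker shape and place. The set 2 libraries with the highest member means (3.86 to 4.89) sit at or near 0 for Ptprc, except the second BMT library of each genotype, and the set 2 controls are highest for Ptprc with member means of 2.69 to 3.36. The set 2 libraries with the lowest member means (1.82 to 2.63) also sit at or near 0 for Ptprc.

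The other genes of the pathway were read as lists. The 9 listed interferon genes, the ligands, were under 1 TPM in all 37 libraries, 0 passed the filter, and the highest value was 0.47 TPM of Ifnb1 in a set 1 BMT library. Of 6 listed receptor chains 5 were tested and none was called higher by limma against control. In set 2, 4 were called lower in DKO BMT, 2 in SKO BMT (Il10rb and Ifnar1), 3 in DKO yBM, 1 in SKO yBM, 4 in DKO tumor and 3 in SKO tumor. Il10rb, a chain shared by interferon lambda and interleukin-10 receptors, was among them in all 6 groups. Over all genes, 8.36% were called lower in SKO BMT, and 11.6% to 19.5% in either direction in the other set 2 groups. In set 1, Ifngr1 was lower in DKO yBM, and Ifnar2 and Il10rb in DKO tumor.

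Of 10 signalling genes, Irf8, a factor of myeloid and plasmacytoid cells, was called lower in all 6 set 2 groups, joined by Irf5 in DKO BMT, SKO BMT and SKO tumor and by Irf2 in SKO tumor. Of 14 sensor genes, 5 to 7 were called lower in each set 2 group, with Tlr7, Tlr9, Tlr4 and Ikbke among them each time. Of 10 negative regulators, 2 to 4 were lower in each set 2 group, with the leukocyte phosphatase Ptpn6 in each. The shares of all genes called in these groups are those given for the receptors. In set 1, Cish was lower in DKO yBM and Ptpn6 in DKO tumor. None of these 3 lists held a gene called higher against control in either set. Irf8, Tlr7 and Ptpn6 also rose with Ptprc in the slopes of both sets. Plasmacytoid dendritic markers, 6 listed, were under 1 TPM in all libraries of a group for 4 or 5 of the 6.

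Among 74 other interferon-stimulated genes, chosen as a wider list, 70 were tested in set 2 and the calls divided. In DKO BMT 5 were higher and 4 lower (12% of all genes were called). In SKO BMT 6 were higher (Oasl1, Apol9a, Ifi211, Cxcl10, Apol9b and Ifi204), where 5% of all genes were. There 4 were lower (Epsti1, Ifi207, Ifi30 and Slfn2), where 8.36% of all genes were. In DKO yBM 3 were higher and 15 lower (19.5% of all genes called), and in SKO yBM 2 higher and 13 lower (13.5%). In DKO tumor 1 was higher and 7 lower (17.2%), and in SKO tumor 1 higher and 9 lower (11.6%). Epsti1, Ifi207 and Slfn2 were lower in all 6 groups, and in set 1 these 3 rose with Ptprc, together with Ifi203, Slfn5 and Nmi. In set 1 limma called 0 of the 69 tested in each group against control, with 6, 6 and 9 at an unadjusted p under 0.05 in DKO yBM, DKO BMT and DKO tumor. Of 8 mesenchymal and 6 osteoblast markers, limma called Runx2 higher in SKO yBM and SKO BMT, Spp1 lower in DKO tumor of set 2 and Cxcl12 lower in DKO BMT of set 1.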

How the data were processed

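Polyadenylated RNA of cultured marrow or tumor cells was converted with a stranded kit and sequenced on a NextSeq 500. The deposited values were TPM per gene, made by the authors; tools listed in the submitters' processing notes were Salmon, FastQC, DESeq2 and Trim Galore 0.6.1, with build mm39. TPM holds no read depth. Each library's TPM summed to 1000000.

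The members and lists were chosen with earlier results of these data known. The 37 libraries were grouped by label. The 3 control columns of set 2 (WT 1 to 3) could be matched to their group but not to a sample, and no column was left unused. No pair of libraries was a duplicate (highest correlation 0.9718). A gene was kept where 3 or more libraries of the set had 1 TPM or more, and log2(TPM + 1) was fitted with limma 3.58.1 in R 4.3.3 (trend, all groups of a set, Benjamini-Hochberg over all genes tested, threshold 0.05). This scale makes the fold change of a low gene too small. The joint fit took both sets, and slopes on log2(Ptprc TPM + 1) were fitted within a set with the groups as terms. The script was tested on simulated data. Values by library are given for a set list of 18 members and for each called member, except in DKO yBM of set 1. There the lowest, median and highest of 6 libraries are given. Where no member was called, the 2 members with the smallest p are named. Genes called from other lists are named from the smallest p on. Lists covered ligands, receptors, signalling, sensors, negative regulators, other interferon-stimulated genes, and leukocyte, plasmacytoid dendritic, mesenchymal and osteoblast markers.

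Alternatives were a pseudocount of 0.1, no filter, median-ratio scaling, removal of 37 mitochondrial genes, only the compared groups, Ptprc or the leukocyte list as a covariate, the replicate number as a block and leaving out each library. Leaving out libraries whose Wwox or Trp53 went against the label (50% of the control mean) was added after seeing the data. Control libraries were not held against this limit. Tumor and BMT cells were not compared with each other. Promoter windows came from RefSeq on GRCm38.p6 by symbol and no coordinate was carried to mm39.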

Additional observations from a re-analysis of the deposited data

Results flagged for a closer look

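In 66 pairs of a member and a group of 4 or 6 libraries, a library far from the rest of its group was looked for, and 2 were found, where chance gives about 1 in 20. Oasl2 had 127.8 TPM in DKO yBM 4 of set 1, against 6.31 to 48.4 TPM in the other 5 libraries of that group. Samd9l had 16.9 TPM in control BM 2 of set 1, against 12.2 to 12.8 TPM in the other 3 controls.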

How the results depend on the processing

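The count of called members stayed at its reported value in 277 of the recomputed settings and moved in 26. The shares of all genes called in these settings are not given here. Only the compared groups in the fit gave 3 called members in SKO yBM (Parp14, Samd9l and Trim30a, lower), 1 in DKO yBM (Samd9l), 11 in SKO BMT, 1 in set 1 DKO yBM (Xaf1, higher) and 1 for the yBM effect between sets (Samd9l). Median-ratio scaling gave 2 in SKO yBM, 2 in DKO yBM, 2 in SKO BMT (Usp18 and Xaf1) and 1 in DKO tumor of set 2 (Parp14), and moved the median of all genes by up to -0.35 (yBM effect between sets). In SKO BMT the count was 0 with no filter on low values, with Ptprc or the leukocyte list as a covariate and without libraries whose Wwox goes against the label. Leaving out single libraries gave 0 in SKO BMT (0 to 0, reported 1), 0 to 1 in SKO yBM, 0 to 2 in DKO yBM and 0 to 1 for the set 1 slope on Ptprc. That slope gave 3 members on the leukocyte list mean, 1 without libraries whose Wwox goes against the label (Ifi44) and 1 without those whose Trp53 does (Trim30a). The DKO tumor comparisons of set 2 could not be fitted without the Wwox libraries, since no library was left. The cause of these changes was not tested, beyond fewer libraries or genes entering a fit.

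Some members named for a small p changed sign. Trim30a in DKO tumor of set 2 went to 0.22 with Ptprc as a covariate. Oas1a in DKO yBM against SKO yBM went to -0.31 without DKO yBM 3 (range over single libraries left out, -0.31 to 2.21). For the BMT effect between sets, Parp14 went to 0.21 with the leukocyte list, and Trim30a to 0.79 with Ptprc and 0.94 with the leukocyte list. The cause was not tested.

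For a check on replicate numbers, each group's mean was first subtracted from its libraries, gene by gene. Over all groups, correlations of these deviations between same-numbered libraries exceeded 0.1 in 4 of 19 pairs in set 1 and 12 of 45 in set 2. Among differently numbered pairs they did so in 20 of 74 and 16 of 90. The BMT libraries of set 2, picked out after seeing the values, had 0.293, 0.291 and 0.381 between SKO and DKO libraries numbered 1, 2 and 3. Their differently numbered pairs ran from -0.292 to -0.029. Deviations cancel out within a group, so positive same-numbered values push the others down, and this contrast is partly built in. What the same-numbered BMT libraries share was not tested. With the replicate number as a block, 0 members were called in each of the 7 results where the block was run (set 1 groups against control, DKO against SKO, and the set 1 slope). Set 2 controls carry no number in the columns and the age groups share none, so no block was possible there.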
